A study of Homo sapiens with 6 samples.

Results

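The 3 clones of U87 glioma cells with full-length IL-33 differed in how much IL33 mRNA they carried, and the genes described here are those whose level followed that order. U87 is an established human glioma cell line. Levels are deposited log2 values of a 3′ expression array, so a difference of 1 is a doubling. With the clones ordered by IL33 as clone 5, clone 3 and clone 9, a gene was chosen where its level went the same way at both steps, where clone 9 and clone 5 differed by at least 1, and where the highest of the 3 clones was above 5. This gave 95 ascending genes (0.817% of the 11628 genes with a clone above 5) and 65 descending genes (0.559%), or 160 of the 18132 genes measured. The clones' own values chose these genes, so levels and differences between the clones are a description and carry no test. The order also rests on 1 array for each clone, and whatever else differed between the clones cannot be told apart from IL33 here.

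The series held 6 arrays of stably transfected U87 cells, all selected with G418. There were 3 IL-33 clones (5, 3 and 9) with human IL-33 in the plasmid pcDNA3.1, 2 clones (3 and 4) with IL-33 lacking its nuclear localization signal (ΔNLS), and 1 control with the empty pcDNA vector. Each clone was measured once, and the control was 1 array. Clone 3 of the IL-33 construct and clone 3 of ΔNLS share only a number. The question addressed was how far the expression of other genes went along with the amount of full-length IL-33.

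IL-33 belongs to the IL-1 family and has a nuclear and an extracellular role. Its N-terminal part carries it into the nucleus, where it binds chromatin, and its C-terminal part is a cytokine that is released from damaged cells. Outside the cell it binds the receptor ST2, encoded by IL1RL1, together with the shared subunit IL1RAP, and signals through MyD88 to NF-κB and MAP kinases. NF-κB in turn drives cytokine and chemokine genes as well as the genes of its own inhibitors. In glioma, IL-33 and the cytokines it goes with are studied for their part in drawing macrophages and microglia into the tumor.

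Mesenchymal markers of U87 cells were high in the IL-33 clones. VIM (vimentin) was at 13.71 to 13.77 and CD44 at 12.41 to 12.73 in the 3 IL-33 clones, and 8 of 13 glioma and mesenchymal markers lay above the background level in each of them. That level, 4.81, was the 95th percentile of 333 olfactory receptor genes, which these cells should not use. GFAP, the astrocyte filament, was at 6.40 to 6.41, while OLIG2 and S100B, further glial markers, stayed under 4.81 in all 3. Of 11 immune cell markers 5 were above background in each clone, with a summed level (log2) of 9.65 to 9.94 in the clones and 10.49 in the control, but the defining markers PTPRC, CD3E, CD14 and ITGAM were under background on all 6 arrays. The median over all probe sets was 5.61 to 5.62 in the IL-33 clones, 5.43 in both ΔNLS clones and 5.61 in the control. Computed across genes, which are no replicates, correlations between arrays were 0.991 for clone 9 with clone 5, 0.991 for clone 3 with clone 5 and 0.995 for clone 9 with clone 3.

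IL33 set the order and was itself at 6.40, 8.38 and 9.50 in clones 5, 3 and 9, at 6.50 and 6.62 in ΔNLS clones 3 and 4, and at 3.46 in the control, below background. Clone 5 thus held about as much IL33 mRNA as the ΔNLS clones, and clone 9 held 8.58 times as much as clone 5. A further probe set of IL33 gave the same order (5.90, 7.91 and 9.04). The lowest of the 3 IL33 probe sets did not, with 5.21, 7.15 and 6.64, so that clone 3 was above clone 9 there. In that other order of the clones 116 genes ascended and 64 descended by the same rule, which by construction are other genes than those described here. IL1RL1, the ST2 receptor, was under background in every clone (4.73, 4.65 and 4.59), while its partner IL1RAP was at 7.39, 7.18 and 7.27.

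The promoters of 6 ascending genes are shown because of what they share. They are the 4 CXC chemokines, IL6 and NFKBIA, the NF-κB inhibitor IκBα, and each holds a match to GGANTTTCC, a core of the sites that NF-κB binds. Each line gives the 150 bases before the RefSeq start of the gene (GRCh38.p14) on the gene's own strand, with the match in capitals. In NFKBIA the match lies on the other strand, so its capitals are the reverse complement of the motif. The windows are chr4:73869243-73869392 (plus strand) for CXCL1, chr4:74099196-74099345 (minus) for CXCL2, chr4:74038690-74038839 (minus) for CXCL3, chr4:73740419-73740568 (plus) for CXCL8, chr7:22727050-22727199 (plus) for IL6 and chr14:35404750-35404899 (minus) for NFKBIA.
CXCL1: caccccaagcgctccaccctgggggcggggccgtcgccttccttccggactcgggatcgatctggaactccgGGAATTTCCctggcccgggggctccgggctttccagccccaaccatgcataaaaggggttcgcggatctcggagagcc
CXCL2: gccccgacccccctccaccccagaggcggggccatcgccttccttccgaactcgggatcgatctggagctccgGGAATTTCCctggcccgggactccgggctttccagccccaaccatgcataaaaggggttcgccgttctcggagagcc
CXCL3: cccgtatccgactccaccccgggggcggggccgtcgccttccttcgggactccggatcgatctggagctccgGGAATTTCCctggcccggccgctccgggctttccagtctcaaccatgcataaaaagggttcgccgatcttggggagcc
CXCL8: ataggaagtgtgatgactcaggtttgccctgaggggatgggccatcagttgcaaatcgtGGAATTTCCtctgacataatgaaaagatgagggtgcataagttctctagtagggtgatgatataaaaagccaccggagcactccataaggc
IL6: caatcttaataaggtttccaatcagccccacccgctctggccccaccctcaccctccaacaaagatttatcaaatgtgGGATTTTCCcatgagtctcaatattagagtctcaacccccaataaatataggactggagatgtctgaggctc
NFKBIA: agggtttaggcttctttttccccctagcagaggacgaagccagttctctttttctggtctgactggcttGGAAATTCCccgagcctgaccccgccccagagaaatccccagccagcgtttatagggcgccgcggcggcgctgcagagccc
CXCL1, CXCL2 and CXCL3 are neighbouring copies of each other, and their windows are nearly alike around the match. The first base of the match lies 78, 77 and 78 bases before the start in these 3, 91 in CXCL8, 72 in IL6 and 81 in NFKBIA. Within 250 bases before the start, on either strand, these letters were found in 11 of the 68 ascending genes with a promoter in the table (16.2%) and in 1 of 48 descending genes (2.08%), against 1.79% of all 27305 promoters and 2.15% of 9561 promoters of genes with a clone above 5. The other ascending genes with a match were NFKBIZ, TNFAIP3, TNIP1, F3 and RTN1. The letters TGANTCA of AP-1 sites, which do not overlap the other motif, were in 6 ascending (8.82%) and 8 descending genes (16.7%), against 8.06% of all promoters and 6.36% of those of genes with a clone above 5. A match is a string of letters and not a site shown to be used.

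Secreted inflammatory proteins were among the ascending genes with the largest differences. Of 41 measured cytokines, chemokines and other secreted immune factors with a clone above 5, 11 ascended and 2 descended, and the differences of the 11 between clones 9 and 5 ran between 1.82 and 5.05. CXCL3, a chemokine for neutrophils, was at 5.76, 6.96 and 10.82 in clones 5, 3 and 9, at 2.76 and 2.43 in ΔNLS clones 3 and 4, and at 5.41 in the control. Its level in clone 9 was 33.2 times that in clone 5, the largest difference of the 95. Clone 5 was close to the control, clone 3 was 1.55 above it and clone 9 far above. IL6, the inflammatory cytokine interleukin 6, was at 7.54, 8.54 and 12.07 in clones 5, 3 and 9, at 4.48 and 4.77 in the ΔNLS clones, and at 5.60 in the control. Its dimmer second probe set had the same order and a smaller difference of 1.95 between clones 9 and 5, against 4.53. On the set used, all 3 IL-33 clones lay above the control for IL6 and both ΔNLS clones below it.

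CXCL2 and CXCL8 (interleukin 8) are further neutrophil chemokines. CXCL2 was at 7.50, 8.69 and 11.37 in clones 5, 3 and 9, at 5.44 and 5.51 in the ΔNLS clones, and at 6.84 in the control. CXCL8 was at 9.04, 10.33 and 12.88 in clones 5, 3 and 9, at 5.64 and 5.88 in the ΔNLS clones, and at 8.07 in the control. In both genes the IL-33 clones, the control and the ΔNLS clones followed each other without overlap. The same placing, with the IL-33 clones above and the ΔNLS clones below the control, was found in 11% of all genes with a clone above 5. CXCL1 was lower, at 4.52, 5.20 and 6.47 in clones 5, 3 and 9, against 4.38 and 4.54 in the ΔNLS clones and 4.92 in the control. Its second probe set gave a larger difference of 4.03 between clones 9 and 5, against 1.95 on the set used. The probes of CXCL1, CXCL2 and CXCL3 may read each other's transcripts, so how the signal divides among the 3 genes is uncertain.

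IL1B, which encodes IL-1β, was at 11.68, 12.09 and 13.50 in clones 5, 3 and 9, at 5.18 and 5.50 in the ΔNLS clones, and at 6.64 in the control. The distance of the 3 clones from the control was thus larger than the distance among them. IL1RN, the antagonist of the IL-1 receptor, was at 4.94, 5.51 and 7.51 in clones 5, 3 and 9, at 4.17 and 4.21 in the ΔNLS clones, and at 4.87 in the control, so that clone 9 alone stood clearly apart on this probe set. Its second probe set gave a larger difference of 4.27 between clones 9 and 5, against 2.57. Clone 3 stood apart there too, at 5.76 against 4.23 in clone 5 and 3.77 in the control. LIF, which signals through the receptor subunit shared with IL-6, was at 9.01, 9.47 and 11.16 in clones 5, 3 and 9, at 7.30 and 7.03 in the ΔNLS clones, and at 5.12 in the control. CSF3, the granulocyte growth factor G-CSF, was at 7.996, 9.19 and 11.53 in clones 5, 3 and 9, at 5.83 and 5.70 in the ΔNLS clones, and at 6.37 in the control. LIF is the one of these 4 for which the ΔNLS clones were above the control on the probe set used. Another LIF probe set had them below it, at 4.13 and 4.22 against 4.41.

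The CC chemokines had no common direction. CCL2, which draws monocytes, was at 4.46, 6.62 and 7.48 in clones 5, 3 and 9, at 6.42 and 7.09 in the ΔNLS clones, and at 3.10 in the control. Clone 5 and the control were below background for CCL2, and the ΔNLS clones lay on either side of clone 3. CCL20, which draws cells with the receptor CCR6, was at 3.36, 4.14 and 5.80 in clones 5, 3 and 9, at 2.65 and 2.62 in the ΔNLS clones, and at 3.84 in the control, so that it was above background in clone 9 only. CCL3, a macrophage chemokine, descended instead, with 7.44, 5.14 and 4.88 in clones 5, 3 and 9, 4.14 and 4.32 in the ΔNLS clones, and 4.35 in the control.

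**Figure D1:**
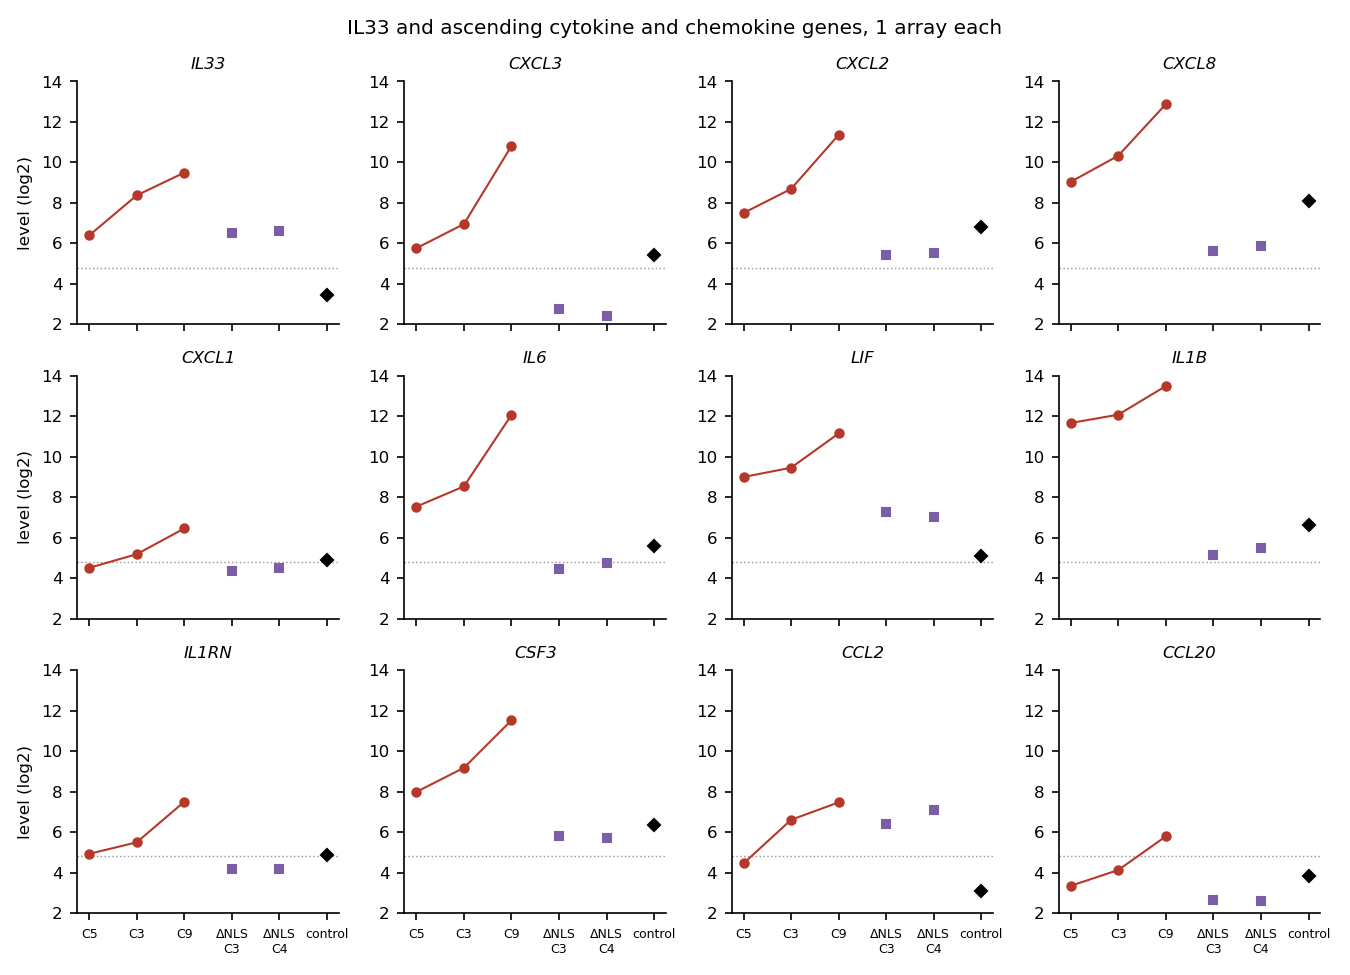
Levels (log2, vertical axis) of IL33 and the 11 ascending cytokine and chemokine genes on each of the 6 arrays (horizontal axis), with IL-33 clones as joined circles, ΔNLS clones as squares, the control as a diamond and the background level of 4.81 as a dotted line. Most panels bend upward at clone 9, and the ΔNLS clones lie above the control for IL33, LIF and CCL2 only.

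The step of most of these genes was from clone 3 to clone 9. Where clone 3 stands between the other clones can be given as a percent, with 0 for the level of clone 5 and 100 for that of clone 9. IL33 had clone 3 at 63.8%. For 10 of the 11 secreted genes clone 3 stood under 50%, with a range of 21.3% to 71.5% and CCL2 as the exception, whereas over all ascending genes the median was 53.9% and 43 of 95 were under 50%. The plot of both steps shows these genes along the upright axis, with CXCL3 and IL6 at the top. Those 10 genes differed less than IL33 between clones 5 and 3, and more than it between clones 3 and 9. A step was compared in size with the differences between ΔNLS clones 4 and 3, of which 95% were under 0.399. Both steps exceeded that size in 59 ascending and 32 descending genes, only the step between clones 5 and 3 in 22 and 22, and only the step between clones 3 and 9 in 14 and 11. The rule asks for a difference of at least 1 over both steps, so at least 1 step exceeded that size in every gene by construction.

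**Figure D2:**
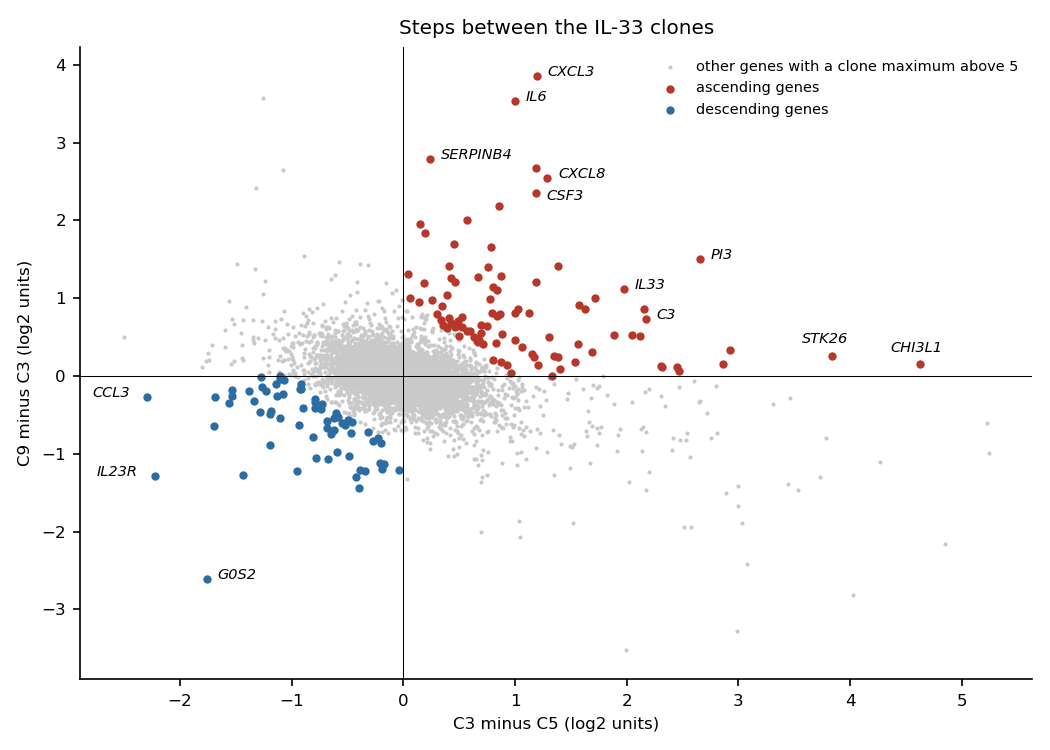
Difference of clone 3 from clone 5 (horizontal axis, log2 units) against that of clone 9 from clone 3 (vertical axis, log2 units) for the 11628 genes with a clone above 5, 1 point for each gene. Ascending genes fill the upper right, where CXCL3 and IL6 have most of their difference between clones 3 and 9 and CHI3L1 and STK26 between clones 5 and 3, and descending genes the lower left; the rule that chose the genes draws these borders.

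Several inhibitors and regulators of NF-κB ascended beside the cytokines, while the other genes of the list, the subunits among them, did not. NFKBIZ, a nuclear IκB protein needed for IL6 induction, was at 7.34, 8.72 and 10.13 in clones 5, 3 and 9, at 6.87 and 6.44 in the ΔNLS clones, and at 6.76 in the control. TNFAIP3 (A20), which removes ubiquitin from signalling proteins, was at 7.58, 7.62 and 8.92 in clones 5, 3 and 9, at 6.59 and 6.18 in the ΔNLS clones, and at 5.87 in the control. NFKBIA was at 8.84, 9.41 and 9.99 in clones 5, 3 and 9, at 8.28 and 8.19 in the ΔNLS clones, and at 8.75 in the control. TNIP1, a partner of A20, differed by 1.16 between clones 9 and 5. The clone order was thus seen in feedback genes of different level and size, but TNFAIP3 was nearly level between clones 5 and 3 (7.58 and 7.62). The other 19 of the 23 genes in the list of subunits and inhibitors neither ascended nor descended, and the median of the list was 0.17, against -0.03 for all genes. RELA was at 8.44, 8.39 and 8.37, NFKB1 at 8.51, 8.45 and 8.61 and REL at 5.19, 5.27 and 5.32 in clones 5, 3 and 9.

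Of 19 NF-κB response and adhesion genes 4 ascended. C3, the central complement component, had the largest difference of them, with 7.67, 9.84 and 10.57 in clones 5, 3 and 9, 6.87 and 6.85 in the ΔNLS clones, and 5.89 in the control. Each clone lay above the control by more than 1. ZC3H12A, a nuclease that degrades IL6 mRNA, IER3, an early response gene, and CEBPD, a transcription factor of the acute phase response, differed by 1.10, 1.11 and 1.01 between clones 9 and 5. ICAM1, the leukocyte adhesion molecule, was instead at 6.98, 6.23 and 6.50, and CD40, a receptor of the TNF family, at 5.81, 5.20 and 4.87, so this list had no common direction (median 0.30).

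Prostaglandin E2 synthesis was represented by its inducible pair of enzymes. PTGS2 (COX-2) was at 7.28, 8.13 and 10.31 in clones 5, 3 and 9, at 3.74 and 3.65 in the ΔNLS clones, and at 6.98 in the control. PTGES, the synthase that acts after it, was at 9.00, 9.87 and 11.15 in clones 5, 3 and 9, at 8.68 and 8.41 in the ΔNLS clones, and at 8.27 in the control. PTGS2 in the ΔNLS clones was below background, while PTGES was present at a high level on every array. The other 8 of 10 genes of the list neither ascended nor descended, PTGES2 and PTGES3 among them, at differences of -0.01 and 0.09. One of the 8, PTGER4, a receptor of prostaglandin E2, differed by -1.39 without descending in order, at 8.01, 6.46 and 6.62 in clones 5, 3 and 9.

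Several secreted proteases ascended too. MMP3 (stromelysin-1) was at 10.40, 11.21 and 12.35 in clones 5, 3 and 9, at 5.55 and 5.40 in the ΔNLS clones, and at 9.10 in the control. MMP1 (interstitial collagenase) was at 5.41, 6.60 and 7.81 in clones 5, 3 and 9, at 3.48 and 3.37 in the ΔNLS clones, and at 6.59 in the control. For MMP3 the 3 clones stood above the control, and for MMP1 they surrounded it. MMP12, the macrophage elastase, differed by 2.72 between clones 9 and 5 (5.81 and 3.09, with clone 5 below background), and TIMP1, an inhibitor of these enzymes, by 1.44. MMP2 and MMP14, which were at 11.33 and 10.88 in clone 9, differed from clone 5 by 0.07 and 0.14. PI3 (elafin), an elastase inhibitor of epithelia, was at 4.84, 7.50 and 9.00 in clones 5, 3 and 9, at 3.18 and 3.26 in the ΔNLS clones, and at 4.30 in the control. SERPINB4, a further protease inhibitor, was at 2.21, 2.45 and 5.24 in clones 5, 3 and 9 and between 2.19 and 2.29 on the other arrays, which makes it a gene above background in clone 9 only.

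Growth factors made up 7 of the ascending genes and 1 of the descending genes, of 29 with a clone above 5. FGF2 was at 8.02, 8.79 and 9.78 in clones 5, 3 and 9, at 7.43 and 7.07 in the ΔNLS clones, and at 9.26 in the control. Ligands of the EGF receptor were among them: TGFA and EREG differed by 1.61 and 1.46 between clones 9 and 5. EREG was at 9.20, 10.20 and 10.66 in clones 5, 3 and 9, at 6.04 and 5.13 in the ΔNLS clones, and at 10.25 in the control. BMP2, a ligand of the TGF-β superfamily, was at 5.39, 6.19 and 6.99 in clones 5, 3 and 9, at 7.28 and 7.07 in the ΔNLS clones, and at 4.69 in the control. Both constructs thus lay above the control for BMP2. VEGFA, the vascular growth factor, only just met the threshold, with 10.28, 11.24 and 11.28 in clones 5, 3 and 9. It was at 11.36 and 11.68 in the ΔNLS clones and at 11.63 in the control. Almost all of its difference lay between clones 5 and 3. Most of its other probe sets put clone 3 slightly above clone 9, for instance at 11.03 against 10.97 and 9.27 against 9.22, and the rest kept the order.

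A different pattern, in which clone 5 stood low and the control high, was found in another part of the ascending genes. CHI3L1, a secreted glycoprotein typical of mesenchymal glioma, was at 4.87, 9.49 and 9.64 in clones 5, 3 and 9, at 9.00 and 8.21 in the ΔNLS clones, and at 10.41 in the control. Clone 3 stood at 96.8% of the way between clones 5 and 9, and clone 5 was far below all other arrays. STK26, a kinase of the germinal center group, was at 3.20, 7.04 and 7.30 in clones 5, 3 and 9, at 2.38 and 2.60 in the ΔNLS clones, and at 7.50 in the control. SRGN (serglycin), a proteoglycan of secretory granules, was at 7.07, 9.997 and 10.33 in clones 5, 3 and 9, at 8.64 and 8.51 in the ΔNLS clones, and at 10.54 in the control. In these 3 genes clones 3 and 9 were near the control, and the order of the clones came from clone 5.

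In some genes of MHC class II clone 5 was also lowest of the IL-33 clones, but clones 3 and 9 stayed below the control. CD74, the invariant chain, was at 5.77, 7.11 and 7.11 in clones 5, 3 and 9, at 6.37 and 5.92 in the ΔNLS clones, and at 8.94 in the control. HLA-DRB1 was at 4.57, 7.04 and 7.11 in clones 5, 3 and 9, at 6.40 and 5.91 in the ΔNLS clones, and at 8.64 in the control. HLA-DRB5 differed by 3.02 between clones 9 and 5, but the probes of HLA-DRB1 and HLA-DRB5 may read each other's transcripts. HLA-DRA (4.24, 7.70 and 7.42) and HLA-DPA1 (5.66, 7.83 and 7.62) were also lowest in clone 5, but clone 3 was above clone 9, so they did not meet the rule. CIITA, the activator of class II genes, was level at 5.79, 5.76 and 5.85. HLA-B, of class I, was at 10.02, 11.43 and 11.52 in clones 5, 3 and 9, at 11.87 and 11.88 in the ΔNLS clones, and at 11.19 in the control. The remaining ascending member of the list, CTSS, a protease that cleaves the invariant chain, had the first pattern instead, with 8.90, 8.96 and 9.95 in clones 5, 3 and 9 and 6.86 in the control.

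The position of the control differed among the ascending genes. In 44 of the 95 ascending genes the control lay below every clone (41.8% of all genes with a clone above 5), in 28 between the clones (27.1%) and in 23 above every clone (31%). The ascending genes were thus spread over all 3 positions, as other genes were. The median place of clone 3 between clones 5 and 9 was 37.1% where the control lay below every clone, 59.4% where it lay between and 85.1% where it lay above. In the descending genes the order of these medians was the reverse, at 67.8%, 55.1% and 38.6%, so that in both sets clone 3 tended to lie toward the end at which the control lay. In 15 ascending genes every clone was above the control by at least 1 (2.27% of all genes): IL33, IL1B, LIF, IL6, CSF3, CCL2, C3, TNFAIP3, MMP3, CEBPD and CTSS, and beyond the gene lists TUSC3, CCDC30, TMEM132A and C11orf96, picked out by their values. In 10 every clone was below it by at least 1 (2%), THBS1, CD74, HLA-DRB1 and HLA-DRB5 among them. Clone 5 was at least 1 below the control in 35 ascending genes and at least 1 above it in 15, clone 3 in 11 and 37, and clone 9 in 10 and 56. Over all genes with a clone above 5 the shares were 4.91% and 5.06% for clone 5, 2.53% and 2.97% for clone 3, and 4.29% and 4.26% for clone 9.

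**Figure D3:**
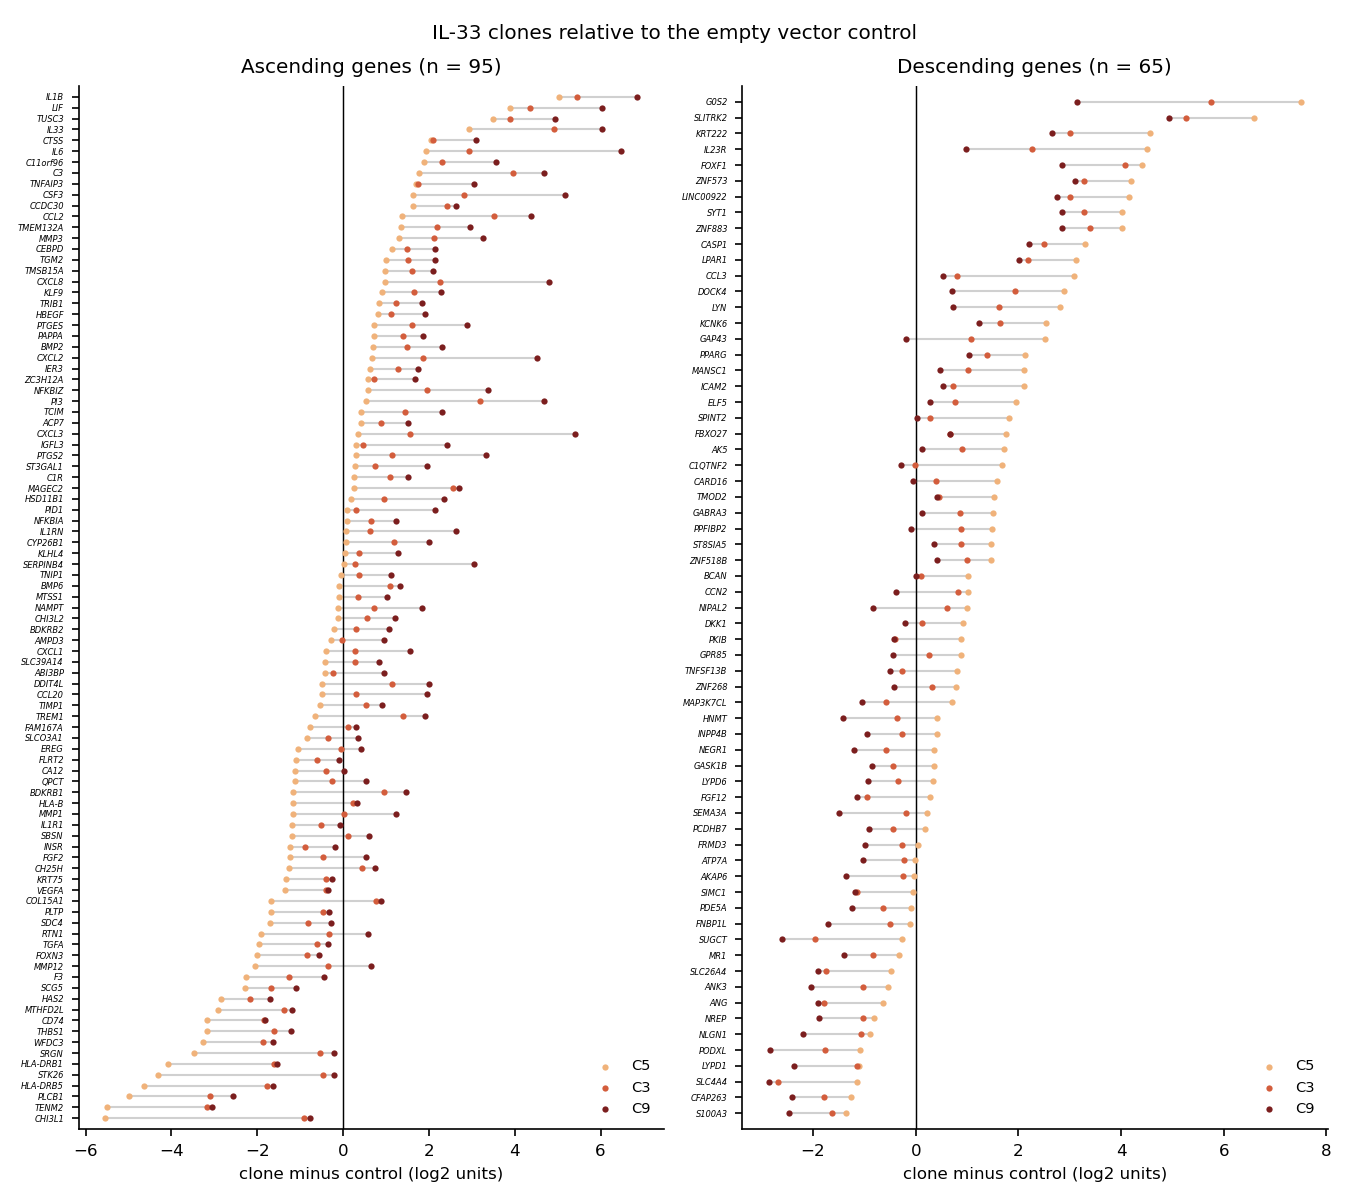
Each of the 95 ascending (left) and 65 descending genes (right) with the difference of clones 5, 3 and 9 from the control (horizontal axis, log2 units; 1 point for each clone), ordered by clone 5. Ascending genes at the foot, such as CHI3L1 and TENM2, have clone 5 far below the control and clones 3 and 9 closer to it, and those at the top, such as IL1B and LIF, have every clone above it.

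The descending genes were smaller in size and more mixed in kind. The median difference of clone 9 from clone 5 was -1.36, against 1.67 for the ascending genes, and 7 of 65 differed by at least 2, against 34 of 95. G0S2, an inhibitor of the lipase that opens fat stores, was at 11.56, 9.80 and 7.20 in clones 5, 3 and 9, at 6.56 and 7.10 in the ΔNLS clones, and at 4.05 in the control. It was the largest of the set, with 20.6 times as much in clone 5 as in clone 9, and yet all 5 transfected clones were above the control. IL23R, a receptor of interleukin 23, was at 7.0015, 4.78 and 3.49 in clones 5, 3 and 9, at 3.41 and 3.69 in the ΔNLS clones, and at 2.51 in the control, so it was above background in clone 5 only. GAP43, a protein of growing axons, was at 10.22, 8.78 and 7.51 in clones 5, 3 and 9, at 8.94 and 8.36 in the ΔNLS clones, and at 7.70 in the control.

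SUGCT, a mitochondrial CoA transferase, had its highest levels outside the 3 clones, with 8.33, 6.63 and 5.99 in clones 5, 3 and 9, 9.19 and 9.85 in the ΔNLS clones, and 8.60 in the control. Its second probe set was below background in the 3 clones. DOCK4 was at 7.64, 6.68 and 5.46 in clones 5, 3 and 9, at 3.37 and 3.86 in the ΔNLS clones, and at 4.75 in the control. Its other probe sets were below background on every array. LYN, a kinase of the Src family, was at 5.76, 4.57 and 3.68 in clones 5, 3 and 9, and under background on the other 3 arrays. Of the other 8 genes among the 15 with the largest differences, HNMT, which inactivates histamine, differed by -1.84, SPINT2, an inhibitor of serine proteases, by -1.78, PODXL, a sialomucin of the cell surface, by -1.74 and SLC4A4, a bicarbonate transporter, by -1.72. C1QTNF2, KRT222, NIPAL2 and MAP3K7CL differed by -1.96, -1.91, -1.84 and -1.75. The difference of C1QTNF2 rests on 1 probe set, since the other, at 3.34 in clone 9 and 3.21 in clone 5, was below background.

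**Figure D4:**
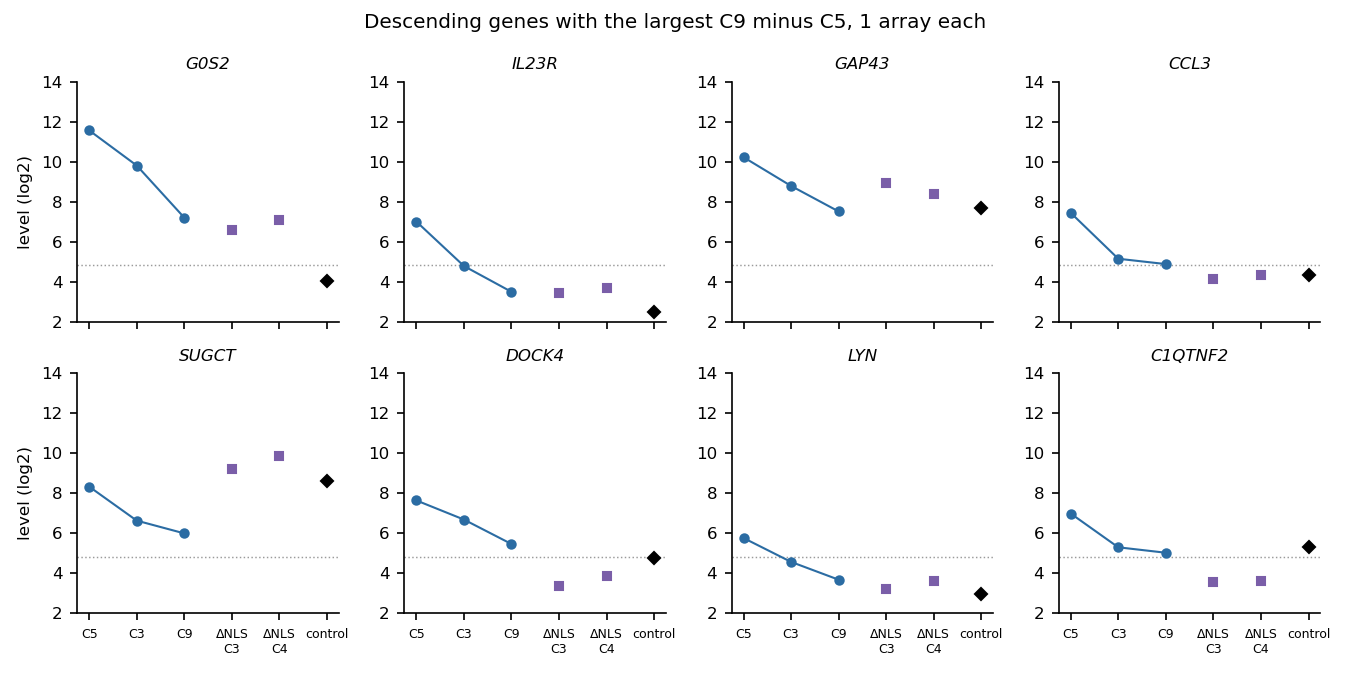
Levels (log2, vertical axis) of the 8 descending genes with the largest differences on each of the 6 arrays (horizontal axis), with IL-33 clones as joined circles, ΔNLS clones as squares, the control as a diamond and the background level of 4.81 as a dotted line. G0S2 lies above the control in every clone, SUGCT lies below it in the IL-33 clones and above it in the ΔNLS clones, and IL23R and LYN end below background in clone 9.

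The 7 descending genes that belonged to a list included genes of nerve cell contacts. SLITRK2, a membrane protein of synapses, was at 9.42, 8.08 and 7.76 in clones 5, 3 and 9, at 8.65 and 8.55 in the ΔNLS clones, and at 2.82 in the control. NLGN1, a neuroligin, was at 5.98, 5.81 and 4.68 in clones 5, 3 and 9, at 6.82 and 7.06 in the ΔNLS clones, and at 6.87 in the control. For SLITRK2 all 5 clones lay far above the control on the probe set used and less far above it on the others. For NLGN1 the IL-33 clones lay below the control. SYT1, a calcium sensor of vesicle release, differed by -1.17 and BCAN, a brain proteoglycan, by -1.02. The second probe sets of NLGN1 and BCAN were below background on every array, so their differences rest on 1 probe set each. TNFSF13B (BAFF), a survival factor of B cells, and CCL3 were the only descending immune factors of the lists, at -1.30 and -2.56. CCN2, a matricellular protein that many growth signals induce, was the descending member of the growth factor list, with 8.94, 8.75 and 7.55 in clones 5, 3 and 9, 10.05 and 10.37 in the ΔNLS clones, and 7.93 in the control. Every clone was above the control by at least 1 in 12 of the 65 descending genes and below it by at least 1 in 5. Over all genes with a clone above 5 these shares were 2.27% and 2%, but the descending genes were chosen for a large difference between clones.

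Set against 22 lists of genes of known roles, the genes that followed the order of the clones were unevenly spread. Of the ascending genes 42 of 95 were in a list, cell type markers included, and of the descending genes 7 of 65. The share of all genes in a list was not counted. The lists were chosen with earlier results of these data known, so these 2 numbers depend on that choice. The CXC chemokines had a median difference of 2.89 between clones 9 and 5, with 4 of 6 ascending, and the cytokines of the IL-1 and IL-6 families 1.82, with 4 of 9, against -0.03 for all genes. The median of the other 20 lists lay between -0.39 and 0.30. None of 26 interferon-stimulated genes, 30 genes of the unfolded protein and ATF4 responses, 44 cell cycle genes, 23 genes of cholesterol and fatty acid synthesis and 18 NRF2 and metallothionein genes ascended or descended. Cell cycle genes had a median of 0.24 with 34 of 44 higher in clone 9 than in clone 5, but the largest difference among them was 0.86. The lists of cytokine receptors and of STAT3 and SOCS genes held 1 ascending gene each, IL1R1, the IL-1 receptor, at 7.60, 8.27 and 8.71 in clones 5, 3 and 9, and TIMP1. The second probe set of IL1R1 was below background on every array.

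**Figure D5:**
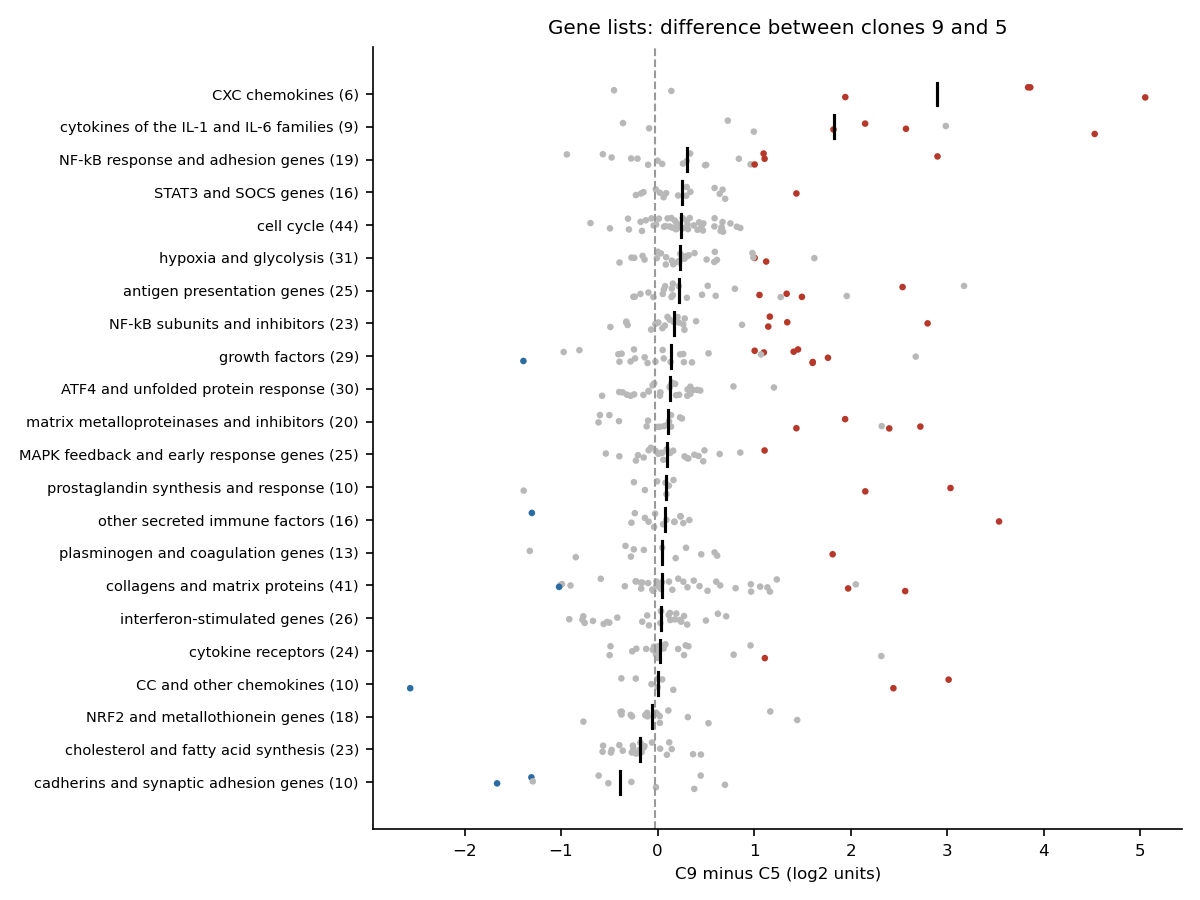
Difference of clone 9 from clone 5 (horizontal axis, log2 units) for the genes of 22 lists with a clone above 5 (1 point for each gene, number of genes in brackets), with ascending genes in red, descending genes in blue, others in grey, the list median as a black bar and the median of all genes as a dashed line. The bars of the CXC chemokines (2.89) and of the IL-1 and IL-6 families (1.82) stand apart from the other lists, whose bars lie within 0.39 of 0.

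Leaving clone 3 aside, 165 genes were at least 1 higher in clone 9 than in clone 5 (1.42% of genes with a clone above 5) and 89 at least 1 lower (0.765%). Clone 3 lay between in 95 and 65 of them. In 63 of the 165 clone 3 was above clone 9, and in 7 it was below clone 5, while of the 89 it was below clone 9 in 20 and above clone 5 in 4. Most of the genes outside the order therefore had clones 3 and 9 on the same side of clone 5. For the 3 pairs, each with the genes above 5 in one of its arrays, 157 genes were higher and 87 lower in clone 9 than in clone 5, 157 higher and 93 lower in clone 3 than in clone 5, and 47 higher and 54 lower in clone 9 than in clone 3, all by at least 1. Between ΔNLS clones 4 and 3 these numbers were 25 and 10.

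The threshold of 1 cut through a continuous range. Just inside it were FLRT2, a cell adhesion protein, VEGFA and CEBPD, all at 1.01, and just outside it IL11, of the IL-6 family, at 0.998, FZD7, a Wnt receptor, at 0.995 and ADM, the peptide adrenomedullin, at 0.993. Among the descending genes BCAN (-1.02), ATP7A, a copper transporter (-1.02), and FRMD3 (-1.03) were just inside, and HYKK (-0.9998), EMC10 (-0.993) and PRUNE2 (-0.991) just outside. IL11 in particular had the order of the other IL-6 family cytokines, with 5.39, 5.84 and 6.39 in clones 5, 3 and 9, 5.04 and 4.79 in the ΔNLS clones, and 5.87 in the control.

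Other probe sets of the same genes gave a further view of the order within the same arrays. In 63 ascending genes 122 other probe sets were above 5. Of the 122, 106 had the same order of the clones. Whether in order or not, 95 of the 122 differed by at least 1 in the same direction and 0 had the opposite sign. In 40 descending genes the numbers were 80, 66, 56 and 0. The lowest clone was below background in 23 ascending and 16 descending genes, whose differences therefore rest on a signal that was not above background at one end.

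The chromosomes contributed unevenly. The largest share of ascending genes was on chromosome 8, with 9 of 417 genes (2.16%), where the median difference of clone 9 from clone 5 over all genes was 0.17, followed by chromosome 20, with 7 of 333 (2.1%) and a median of 0.15. Chromosome 4 had nearly the same share, 8 of 400 (2%), with CXCL1, CXCL2, CXCL3 and CXCL8 among them. It also had the largest share of descending genes, at 1.25%. No descending gene was on chromosome 20, nor on chromosome 22 with its 307 genes.

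The ΔNLS and control arrays were not used to choose the genes, apart from the choice of probe set, so the difference between them could be tested in these genes. Over all 18132 genes limma called 2712 higher in ΔNLS than in control cells (15%) and 3902 lower (21.5%) at an adjusted p under 0.05. Of the 95 ascending genes 21 were higher and 46 lower, and of the 65 descending genes 24 were higher and 18 lower. In 3 of the 46, 3 of the 24 and 2 of the 18 both ΔNLS and control cells were below background, and those calls say nothing of expression. Among the genes with a clone above 5, to which both sets belong, the shares were 19.7% higher and 22.3% lower. Where the control lay below every IL-33 clone 18 ascending genes were higher and 14 lower, where it lay between 2 were higher and 17 lower, and where it lay above 1 was higher and 15 lower. The control is on one side of both comparisons in this split, so a high or low control value moves both. Whether the clones were cultured and processed separately is not given in the sources used here, so these p-values measure only the spread between the ΔNLS arrays, which may be technical. The test had 2 clones against 1 array, the ΔNLS arrays also had a lower median than the others, and this cannot be told apart from the construct. When all 6 arrays were fitted together, with the spread of the IL-33 clones, whose differences chose these genes, included, 6 ascending genes were higher and 14 lower, and 12 descending genes were higher and 7 lower.

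Of the 11 secreted immune factors that ascended, limma called 8 lower in ΔNLS than in control cells and 2 higher, and CXCL1 was not called. One of the 8 was CCL20, which was below background in both, at 2.65 and 2.62 in the ΔNLS clones and 3.84 in the control, so that its call says nothing of expression. CXCL3 differed by -2.82 ± 0.20 (log2 difference ± SE, limma adjusted p = 0.0068), CXCL8 by -2.31 ± 0.16 (0.00685), CXCL2 by -1.36 ± 0.14 (0.00982), IL1B by -1.30 ± 0.20 (0.0175) and IL6 by -0.98 ± 0.19 (0.0281). IL1RN and CSF3 were lower as well, by differences of -0.68 and -0.61. CCL2 (3.66 ± 0.32, limma adjusted p = 0.00839) and LIF (2.05 ± 0.17, 0.00794) were higher. On the probe sets used, CCL2 and LIF thus lay above the control with either construct. For CXCL3, CXCL8, CXCL2, IL1B, IL6, IL1RN and CSF3 every IL-33 clone lay above the control there and both ΔNLS clones below it. This placing was found in 11% of all genes with a clone above 5, and the control was 1 array. Another LIF probe set had the ΔNLS clones at 4.13 and 4.22, below the control at 4.41. A further one had them at 5.18 and 5.15 against 4.96, so the rise of LIF in ΔNLS cells depends on the probe set. The second IL6 probe set had the ΔNLS clones on either side of the control, at 4.19 and 4.61 against 4.42. PTGS2 (-3.29 ± 0.15, limma adjusted p = 0.0046), MMP3 (-3.62 ± 0.14, 0.00385) and MMP1 (-3.16 ± 0.15, 0.00477) were lower in ΔNLS cells too, and C3 (0.97 ± 0.12, 0.0136) and BMP2 (2.49 ± 0.16, 0.00623) were higher. IL33 itself was higher by 3.10 ± 0.15 (0.00478). The ΔNLS levels of CXCL3, IL6, IL1RN, PTGS2 and MMP1 and the control levels of CCL2, BMP2 and IL33 were below background, which leaves the sizes of these differences uncertain. NFKBIZ (-0.10 ± 0.22) and TNFAIP3 (0.51 ± 0.22) did not pass.

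Among the descending genes G0S2 (2.78 ± 0.27, limma adjusted p = 0.00951), SLITRK2 (5.78 ± 0.13, 0.00295) and SYT1 (2.45 ± 0.14, 0.00574) were higher in ΔNLS than in control cells, and SLC4A4 (-5.19 ± 0.21, 0.00428) and NIPAL2 (-2.29 ± 0.17, 0.0071) were lower. GAP43 (0.96 ± 0.27) and SUGCT (0.92 ± 0.30) did not pass. The control levels of G0S2, SLITRK2 and SYT1 and the ΔNLS levels of SLC4A4 and NIPAL2 were below background, so the sizes of these differences are uncertain. Other SLITRK2 probe sets had the ΔNLS clones at 6.14 and 6.04 against 4.50 in the control, and at 5.23 and 4.83 against 3.46. A second G0S2 probe set had them at 5.83 and 6.05 against 4.86. The direction was thus kept for both genes, with smaller differences. IL23R was below background in both ΔNLS and control cells, and no direction is given for it.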

How the data were processed

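For 6 arrays (PrimeView, a 3′ expression array) of transfected U87 cells the authors deposited 1 normalized log2 value for each probe set. The software was Partek 6.0, per the submitters' processing notes. How the background was corrected, how the arrays were normalized and the log base are not given in the sources used here. Base 2 was taken because the highest value, 14.16, exceeds the natural log (11.09) and log10 (4.82) of the largest scanner reading. Arrays have no read depth, and their number limits the precision.

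Of 49395 probe sets 44994 had 1 symbol, 1832 several and 2569 none in the platform annotation, and only the first were used. Of 18132 genes 11735 had several probe sets, of which the highest by mean level was taken, and 18112 were found in RefSeq (GRCh38.p14), the source of symbols, chromosomes and promoters. Promoters of 68 ascending and 48 descending genes were in the table. ΔNLS was compared with the control, the 1 comparison tested, with limma 3.58.1 in R 4.3.3 (lmFit, eBayes with trend, two-sided, Benjamini-Hochberg over 18132 genes, 3 arrays, 1 residual degree of freedom and 2.93 prior ones). On simulated data with 200 changed genes among 18132 it recovered 98% of changes of 1 and 100% of changes of 2, 3 or 4 on the log2 scale, with 9 false calls. All 3 simulated arrays, the control among them, had the spread between the ΔNLS clones and no shift between arrays. The simulation therefore cannot show how the test does with 1 control array of unknown spread or with a shifted array median. Tables and motif counts were made with Python 3.11.15, pandas 2.3.3 and numpy 2.4.6.

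The named genes were IL33, the 15 ascending and 15 descending genes with the largest differences, all members in the secreted immune and NF-κB lists, up to 4 members of every other list, and the 3 genes on either side of the threshold of 1 in each direction. CCN2 and others named as picked out by their values, and list genes that neither ascended nor descended, fall outside it. The genes and lists were chosen with earlier results of these data known. Alternatives were the probe set, the thresholds, the clone order, quantile normalization, 7 chromosomes left out, arrays left out and the fit.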

Additional observations from a re-analysis of the deposited data

Results flagged for a closer look

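In 4 of the ascending and descending genes the IL-33 and the ΔNLS clones lay on opposite sides of the control, each by at least 1 (log2). This is what drew attention to them, and the difference between the constructs was not tested here, because the IL-33 values had chosen the genes. The share of all genes that did so by at least 1 was not counted, so the number 4 cannot be set against it. IL1B was 5.04 to 6.86 above the control in the IL-33 clones, and its difference from the control was -1.46 to -1.14 in the ΔNLS clones, with a distance between the construct means of 7.08. MMP3 was 1.31 to 3.25 above it in the IL-33 clones and at -3.69 to -3.54 in the ΔNLS clones, a distance of 5.84. LPAR1, a receptor of lysophosphatidic acid and a descending gene (8.60, 7.68 and 7.50 in clones 5, 3 and 9), was 2.01 to 3.11 above it and at -1.502 to -1.08 in the ΔNLS clones, where it was below background, a distance of 3.73. THBS1, the matrix protein thrombospondin 1, went the other way, with a distance of -3.89, being at 4.99, 6.56 and 6.97 in clones 5, 3 and 9, at 9.57 and 10.56 in the ΔNLS clones, and at 8.17 in the control. For LPAR1, another probe set had the ΔNLS clones on either side of the control, at 4.23 and 4.86 against 4.74. The remaining LPAR1 probe sets had both below it.

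With no minimum on the distance, the IL-33 clones were all above and the ΔNLS clones all below the control in 17 of 95 ascending genes (17.9%) and 5 of 65 descending genes (7.69%), against 11% of all genes with a clone above 5. The reverse was found in 5 (5.26%) and 5 (7.69%), against 5.73%. The control was 1 array and enters both sides of these counts.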

How the results depend on the processing

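The numbers of ascending and descending genes were 95 and 65. They were 332 and 396 with a difference of at least 0.5, and 34 and 7 with at least 2. Descending genes fell in number to 43 with the probe sets of a gene averaged and to 41 with the second probe set, which 60 of the 65 genes have; 36 and 25 of these genes were among the 65. The ascending genes numbered 82 and 65 in these settings, 73 and 47 of them shared with the 95, of which 67 have a second probe set. Leaving out 1 IL-33 clone and taking the difference of the other pair, an alternative chosen after seeing the data, gave 47 to 165 ascending and 55 to 93 descending genes. Without clone 5, 28 of the 95 and 15 of the 65 remained, and without clone 9, 38 and 25. With steps of at least 0.25 there were 72 and 46, with the clones quantile normalized 100 and 62, with no minimum level 112 and 68, with the maximum taken over all 6 arrays (also added later) 102 and 67, and without 7 chromosomes whose genes were shifted in earlier results 66 and 50.

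For ΔNLS against control all 6 arrays in 1 fit gave 6 ascending genes higher and 14 lower, and 12 descending genes higher and 7 lower, in place of 21, 46, 24 and 18. Leaving out each ΔNLS clone in that fit gave 0 higher and 2 to 3 lower of the ascending genes, 3 higher and 0 lower of the descending genes, and 1237 to 1263 higher and 2370 to 2545 lower of all genes. That fit assumes that the control and the lone ΔNLS clone vary like the IL-33 clones. The spread of those clones chose the genes, which makes calls among them harder to reach but does not exclude them. QPCT, HAS2, ZNF573, LINC00922 and SLITRK2 were called in every setting. CXCL3, CXCL8, CXCL2, IL1B, IL6, CCL2 and LIF were not, so their calls depend on the fit. The other alternatives left each of these counts within 1.5 times its value. No paired analysis was made, because clones of different constructs share at most a number and the control was 1 array with no clone number.

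Of 75 named genes, all moved by less than 0.21, the SD of the difference between the ΔNLS clones over genes, when the clones were quantile normalized. With the second probe set 25 of 57 moved by more and 2 changed sign, C1QTNF2 to 0.13 and FZD7 to -0.30, and the cause was not tested. Differences near the background level of 4.81 are the least certain, and with 1 array for each clone no error can be given for any of them.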
